A study of Mus musculus with 8 samples.

Results

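Coch, Serpini1 and Cyb5r4 are 3 mouse genes whose transcripts were lower in every cKO library than in any cHet library of sorted apical papilla cells, and they were chosen from the 21508 genes tested for exactly that fall. Their difference between the genotypes is therefore described here without a test. What could be tested is whether, among libraries of 1 genotype, each gene follows the olfactory transcript Omp or the mesenchymal transcript Prrx1. The choice did not use that relation, although it favours genes whose spread within a genotype is small beside their difference. The relation of Coch with Prrx1 did not pass over the 6 pairs of gene and transcript (adjusted p = 0.0729, exact permutation test). As an alternative, lists of genes took the place of the 2 transcripts, with adjustment over their own 6 pairs. There the relation of Coch with the list of mesenchymal genes passed (adjusted p = 0.0104, same test). Over all 54 pairs of gene and marker list that relation did not pass (0.0938), but 0.0938 is the smallest that a lone pair could reach there. For Serpini1 and Cyb5r4 no relation with Omp, Prrx1 or the lists they stand for passed.

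Coch encodes cochlin, a secreted protein of the extracellular matrix with an LCCL domain and von Willebrand factor A domains. It is best known from fibrocytes of the inner ear, and mutations of the human gene cause an inherited form of hearing loss. Serpini1 encodes neuroserpin, a secreted serine protease inhibitor made mainly by neurons, which blocks tissue-type plasminogen activator. Cyb5r4 encodes a reductase of the endoplasmic reticulum that joins a cytochrome b5 domain and a cytochrome b5 reductase domain in 1 protein, and mice without it develop diabetes. Omp, olfactory marker protein, is made by mature olfactory sensory neurons, and Prrx1 is a homeobox transcription factor of limb and craniofacial mesenchyme.

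Gene counts were deposited for 8 bulk RNA-seq libraries of tdTomato-positive cells, sorted by flow cytometry from mandibular molars of mice at postnatal day 10 after tamoxifen at day 3. In 4 libraries the cells were labelled Ctnnb1(-/-) and called cKO, and in 4 they were labelled Ctnnb1(+/-) and called cHet, so the cHet cells also lacked 1 copy of the gene for beta-catenin. The labels name the tissue as dental pulp, the cells as CXCL12+ apical papilla cells and, in the extraction protocol, dental follicle cells. The sources used here do not give the allele that drives recombination and tdTomato, or whether animals were pooled. Nothing says that the libraries came from separate animals, and p-values speak only for the scatter among these 8, which could be technical.

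Total counts per library lay between 44444033 and 50051392. The count of the whole Ctnnb1 gene was 277 ± 39.2 CPM in cKO and 257 ± 40.2 CPM in cHet (SD, n = 4 each), and since it includes any exons outside the deletion it cannot check the labels. CPM is the count divided by the library total, after scaling with TMM factors, on the usual scale of this unit. Transcripts foreign to a molar were abundant in both genotypes: the 18 listed olfactory neuron genes, which are all present, summed to between 9156 and 11212 CPM in cKO and between 10222 and 18418 CPM in cHet. The 12 listed mesenchyme genes, Prrx1 among them, summed to between 12982 and 25555 CPM in cKO and between 3315 and 11658 CPM in cHet. All 18 olfactory neuron genes had a lower mean in cKO with none called, and 10 of 12 mesenchyme genes a higher one with 1 called. Of all tested genes, edgeR called only 0.0558% lower and 1.08% higher. Cxcl12, the gene of the label, averaged 826 ± 238 CPM in cKO and 149 ± 91.5 CPM in cHet (SD, n = 4 each). In bulk RNA, fewer cells of a type and less RNA per cell cannot be told apart.

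Omp itself stood at 2219, 1927, 2079 and 1945 CPM in cKO7, cKO9, cKO14 and cKO15, against 1739, 2604, 2559 and 3940 CPM in cHet8, cHet11, cHet12 and cHet14. The groups overlapped, and the difference did not pass (log2 −0.41, SE 0.22, edgeR adjusted p = 0.394). Prrx1 stood at 77.4, 86.4, 84.0 and 120 CPM in the cKO libraries, against 38.6, 13.6, 32.3 and 21.2 CPM in the cHet libraries, in the same order of libraries. Every cKO library lay above every cHet library, and Prrx1 rose in cKO (log2 1.80, SE 0.32, edgeR adjusted p = 0.0455). The call held without cKO9 and without cHet8 and was lost without each of the other 6 libraries (adjusted p from 0.0782 to 0.157), with log2 values between 1.58 and 2.04 throughout.

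**Figure D1:**
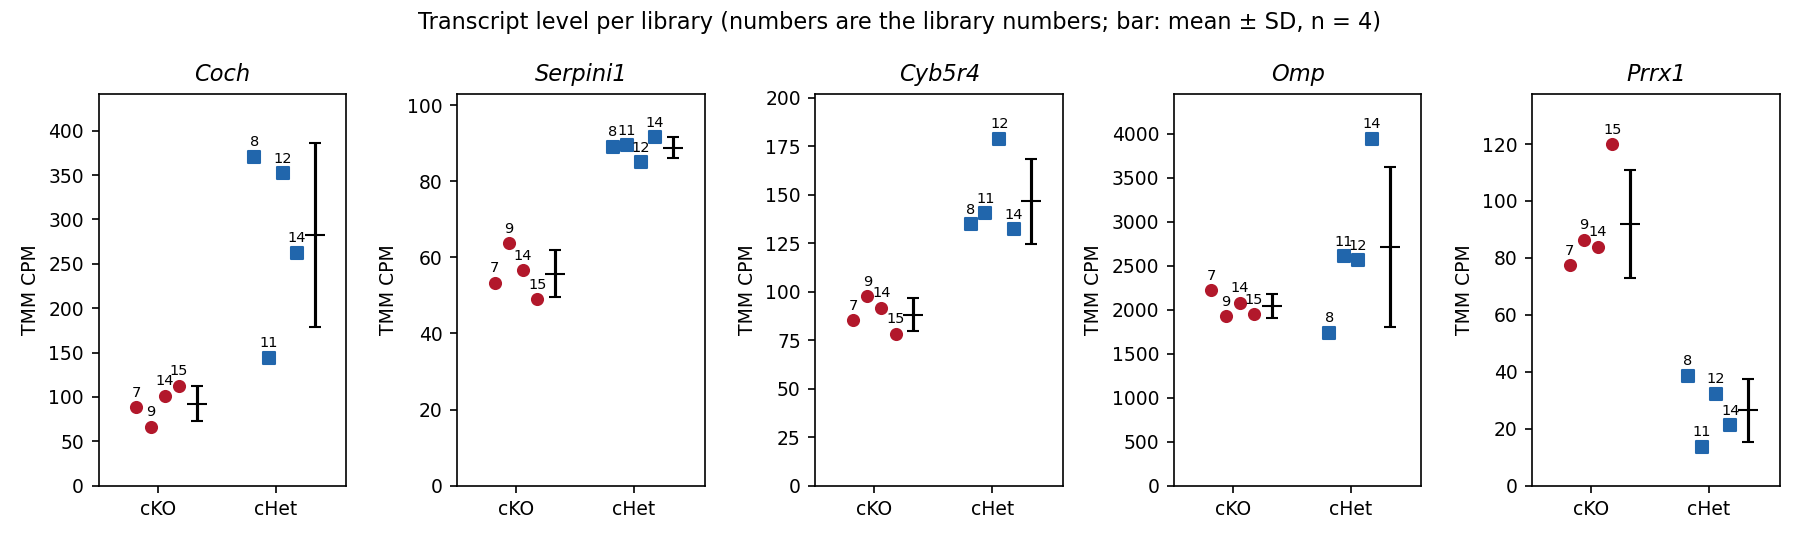
TMM CPM of Coch, Serpini1, Cyb5r4, Omp and Prrx1 in each of the 4 cKO and 4 cHet libraries, with the mean ± SD at the right of each group and the library numbers beside the points. Coch reaches 113 CPM at most in cKO and 144 CPM at least in cHet, while Omp overlaps between the genotypes and Prrx1 is higher in every cKO library.

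Of the 21508 tested genes, 792 were lower in cKO without overlap between the groups, a share of 3.68%, and 12 of these were called lower by edgeR, a share of 0.0558%. Without 1 library, the count of genes called lower was 144 without cKO9, 1 without cHet8 and 0 without any of the other 6. The 3 genes are among the 12 called with all libraries. They were chosen on the same contrast for falls without overlap, so their calls are not a test. In the other direction 6.46% of genes were higher without overlap and 1.08% were called, so that 1.13% were called in either direction, while DESeq2 called 3.97% lower and 7.92% higher. The lowest cHet library exceeded the highest cKO library by 1.28 times for Coch, 1.33 times for Serpini1 and 1.35 times for Cyb5r4, and these margins ranked 112, 84 and 77 among the 792. Where the mean reached 5 CPM, the narrowest gap just inside was that of Eloc, with 126.8 CPM as its highest cKO and 126.9 CPM as its lowest cHet value, and the nearest just outside was Crnkl1, with 67.13 CPM against 67.12 CPM.

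Coch (ENSMUSG00000020953.18) showed the largest difference of the 3 genes and the widest spread. It stood at 88.4, 66.5, 101 and 113 CPM in cKO7, cKO9, cKO14 and cKO15, against 371, 144, 352 and 262 CPM in cHet8, cHet11, cHet12 and cHet14. The groups did not overlap, but cHet11 lay much nearer to the cKO libraries than the other cHet libraries did. Means were 92.2 ± 19.9 CPM in cKO and 282 ± 103 CPM in cHet (SD, n = 4 each), a log2 fold change of −1.61 (SE 0.30), so that cKO stood at 32.7% of the cHet mean. The counts behind these values were large, between 2971 and 4799 in cKO and between 7613 and 19231 in cHet, and no library's position rests on a handful of reads.

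The promoter window of Coch is shown because the 3 genes were lower together. It runs from 250 bases before to 50 bases after the annotated start, as RefSeq gives it on the plus strand of build GRCm38.p6 at chr12:51593091-51593390.
Coch: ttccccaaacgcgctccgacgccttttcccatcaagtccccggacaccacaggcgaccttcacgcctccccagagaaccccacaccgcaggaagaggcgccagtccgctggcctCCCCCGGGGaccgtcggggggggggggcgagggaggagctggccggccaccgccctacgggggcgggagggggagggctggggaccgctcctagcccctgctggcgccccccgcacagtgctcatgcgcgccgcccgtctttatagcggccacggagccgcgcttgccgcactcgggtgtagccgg
Capitals mark matches to CCCNNGGG, the core of the motif bound by Olf/EBF factors, which act in olfactory neurons and other cells. This core reads the same on both strands and was present as 2 overlapping matches, while 13.7% of 32851 promoter windows of this length hold at least 1. Neither CTTTGA nor CTTTGT, the cores of sites for TCF and LEF factors, which work with beta-catenin, was in the window on either strand. Of all windows 16.0% hold CTTTGA and 18.7% hold CTTTGT. The window is 73.7% G and C, where the median window has 52.7%. The shares of windows given here are over all windows, not over windows of like G and C content. They therefore do not show how unusual a match or its absence is for this window. A match is only a match of letters, and its absence says nothing of binding elsewhere.

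Among libraries of 1 genotype, Coch followed mesenchymal transcript content. In cHet, Coch and Prrx1 put the libraries in the same order, cHet8 highest, then cHet12, cHet14 and cHet11. In cKO the order of Coch was cKO15, cKO14, cKO7 and cKO9, which is the order of the mesenchyme list score (the mean log2 CPM of its 12 genes), while Prrx1 shared with it only cKO15 as the highest. With each library expressed as its deviation from the mean of its own genotype, Coch and Prrx1 had a Pearson r of 0.89 over 8 libraries (exact permutation p = 0.0122, two-sided, over 576 arrangements within genotypes) and a Spearman rho of 0.83 (exact p = 0.0382). Adjusted over the 6 pairs of gene and transcript, the p for r was 0.0729, which does not pass, though it passed without cKO9 (r = 0.96). Without cHet11 and cHet14, the libraries farthest from the median of Prrx1, r was 0.54 (exact permutation p = 0.396), so the relation with Prrx1 alone rests on those 2 libraries.

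With the whole mesenchyme list in place of Prrx1, r for Coch was 0.993 and rho 0.952. Their exact permutation p-values were 0.00174, the smallest that 576 arrangements allow, and 0.00347. Adjusted over the same 6 pairs with list scores in place of the single transcripts, the p for r was 0.0104. Leaving out cKO15 and cHet11, the libraries farthest from the median of this score, left r at 0.976 (exact p = 0.0278, the smallest that 36 arrangements allow). With any 1 library left out, r stayed between 0.983 and 0.995. The 6 listed apical papilla genes, of which Pdgfra is also a mesenchyme gene, had r = 0.92 with Coch (exact permutation p = 0.00521; rho 0.90, exact p = 0.0174), and r = 0.86 without cHet11 and cHet14 (exact p = 0.0417).

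**Figure D2:**
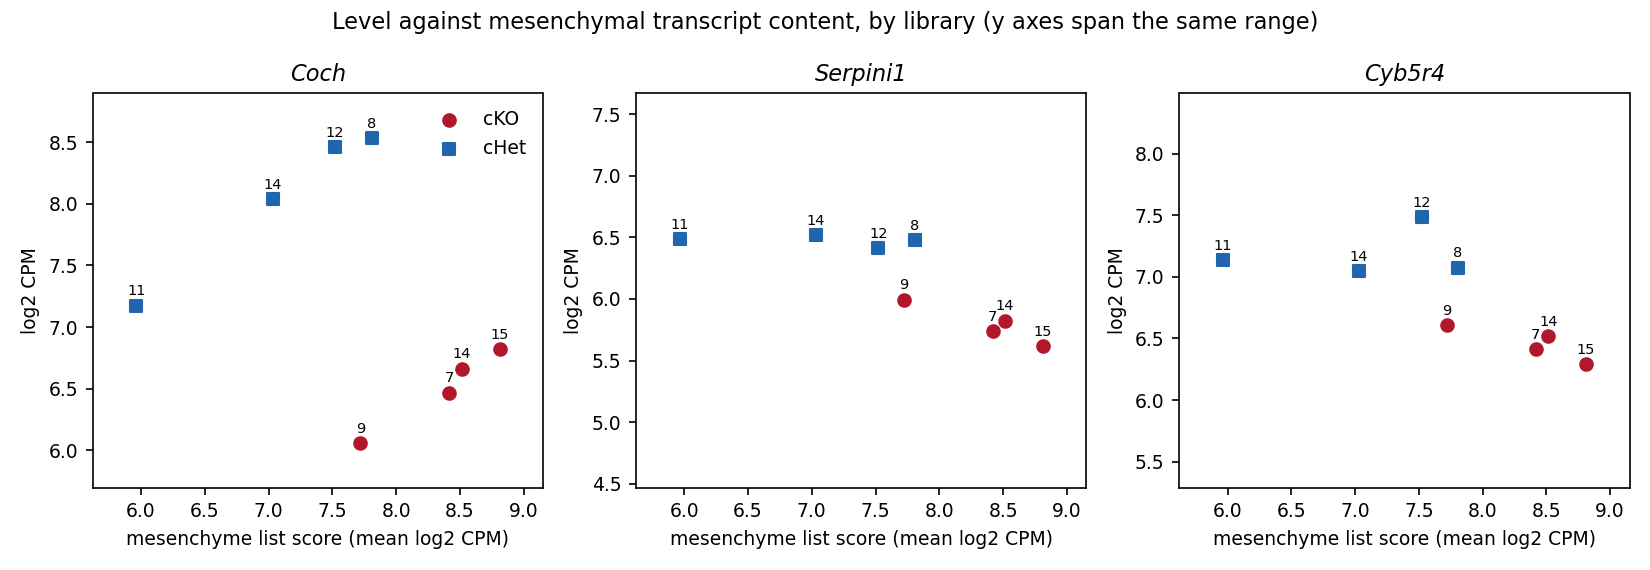
Log2 CPM of each gene against the mesenchyme list score (mean log2 CPM of 12 genes) in each library, with y axes that span the same range and library numbers beside the points. Coch climbs with the score in both genotypes along separate lines, cKO lying below cHet, while the cHet libraries of Serpini1 hardly move over the same range of scores.

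The fit across all genes gave the same picture for Coch. With genotype as a term, edgeR estimated a slope of 0.75 (SE 0.07) in log2 Coch for each unit of the mesenchyme list score, adjusted p = 0.00913 over 21508 genes, and Coch had rank 22 of all genes by this p. In that fit 335 genes passed, a share of 1.56%. The call was lost without cHet8 (slope 0.78, adjusted p = 0.0519) and without cHet11 (0.69, adjusted p = 0.151), and it held with each of the other 6 libraries left out. On Prrx1 alone the slope was 0.86 (SE 0.19). It was called by DESeq2 (0.88, adjusted p = 0.00213, where 1.84% of genes passed) and not by edgeR (adjusted p = 0.471). The edgeR fit on Prrx1 called no gene at all, although 6.90% had an unadjusted p under 0.05.

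The direction of this relation within genotypes is opposite to the difference between them. Mesenchymal transcripts stood higher in cKO, and Coch stood lower. Set against Prrx1 in the same library, Coch had a ratio of CPM of 1.14, 0.769, 1.20 and 0.941 in cKO7, cKO9, cKO14 and cKO15, against 9.60, 10.6, 10.9 and 12.4 in cHet8, cHet11, cHet12 and cHet14. The ratio averaged 1.01 ± 0.198 in cKO and 10.9 ± 1.14 in cHet (SD, n = 4 each), 10.7 times as high in cHet. Its highest and lowest cHet values differed by 1.29 times, where those of Coch itself differed by 2.57 times, so cHet11 no longer stood apart. Serpini1 and Cyb5r4 set against Prrx1 also separated without overlap, with ratios 6.30 and 6.42 times as high in cHet, so the separation is not particular to Coch. It was fixed in advance, since each gene was chosen as lower in every cKO library and Prrx1 was higher in every cKO library. Set against Omp, all 3 genes overlapped between the genotypes, with mean ratios 2.61 times as high in cHet for Coch, 1.30 times for Serpini1 and 1.35 times for Cyb5r4. For Coch only cHet11 (0.0554) lay below the highest cKO ratio (0.0580). For Serpini1 and Cyb5r4 only cHet14, the library with the most Omp, did so (0.0232 against 0.0331, and 0.0335 against 0.0506). These are ratios of counts, not of molecules per length, and serve only to compare libraries.

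Omp gave no such relation for Coch. The deviations of Coch and Omp had r = −0.27 (exact permutation p = 0.641) and rho = −0.38 (exact permutation p = 0.431), and r was −0.00618 without cHet8 and cHet14 (exact p = 0.958). cHet14, with by far the most Omp, had a middling Coch value, and cHet8, with the least Omp, had the highest. The slope of Coch on Omp was −0.41 (SE 0.47, edgeR adjusted p = 0.9997), and the sign of r and of the slope turned without cHet8 (0.15 and 0.09). With the olfactory neuron list score r was −0.61 (exact permutation p = 0.198; rho −0.76, exact p = 0.0556), or −0.70 without cKO15 and cHet14 (exact p = 0.250), and the slope was −1.16 (SE 0.58, edgeR adjusted p = 0.551). The edgeR fits on Omp and on this score called 0 genes, with 2.96% of genes at an unadjusted p under 0.05 for Omp, and DESeq2 called 88 genes for Omp, 0.409% of those tested.

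**Figure D3:**
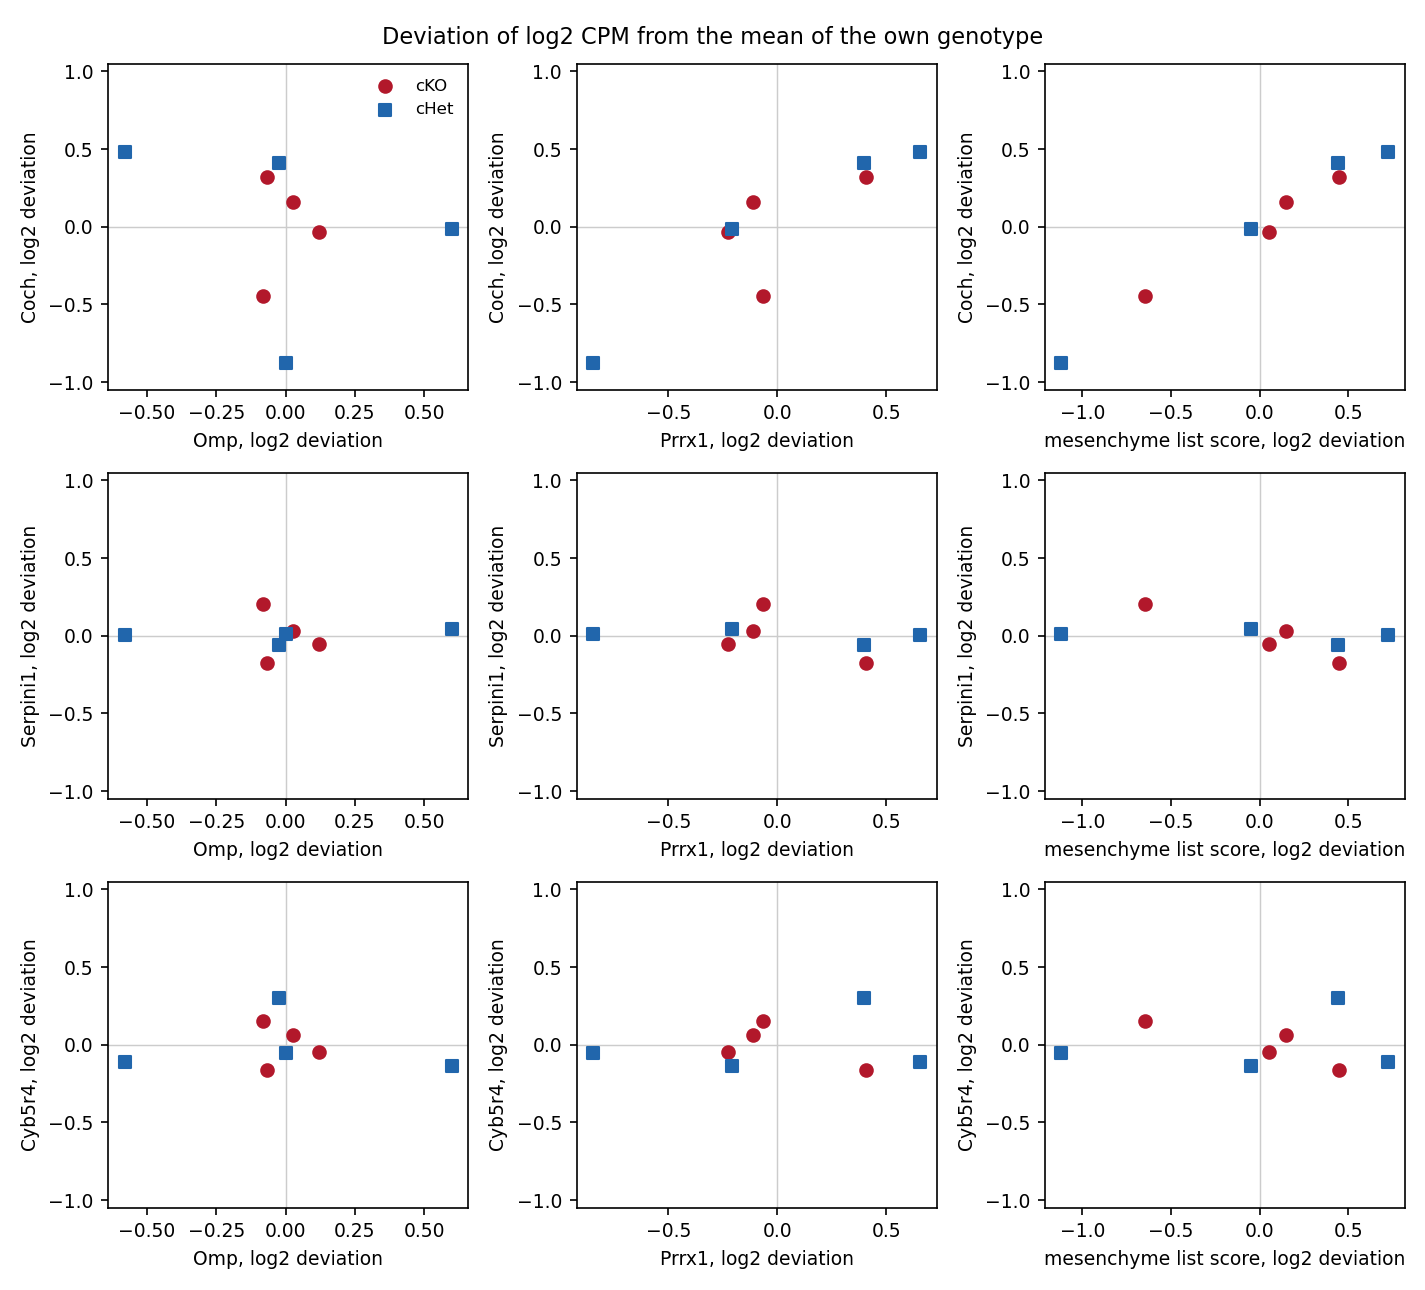
Deviation of log2 CPM of each gene (rows) from the mean of its own genotype, against the same deviation of Omp, Prrx1 and the mesenchyme list score (columns), for 4 cKO and 4 cHet libraries. Coch rises along the mesenchyme score with r = 0.993, and the other panels of the right column have r = −0.53 for Serpini1 and −0.07 for Cyb5r4.

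Putting these contents into the fit as terms changed the log2 difference of Coch most. The log2 difference between the genotypes was −1.61 with genotype alone, −1.74 (SE 0.33) with Omp, −2.10 (SE 0.34) with the olfactory neuron score, −3.16 (SE 0.37) with Prrx1 and −2.52 (SE 0.12) with the mesenchyme score. These values are not tests, since Coch was chosen on the contrast. Prrx1 does not overlap between the genotypes, so the value with Prrx1 carries a slope that did not pass in edgeR beyond the levels seen within either genotype. The mesenchyme score barely overlaps, from 7.72 to 8.81 in cKO and from 5.96 to 7.81 in cHet. The value with this score therefore also rests mostly on levels that the genotypes do not share, which its SE does not show. For Serpini1 the corresponding values were −0.67 with genotype alone, −0.67 with Omp, −0.57 with the olfactory neuron score, −0.54 (SE 0.25) with Prrx1 and −0.55 (SE 0.14) with the mesenchyme score. For Cyb5r4 they were −0.73, −0.75, −0.65, −0.81 (SE 0.31) and −0.72 (SE 0.19) in the same order.

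**Figure D4:**
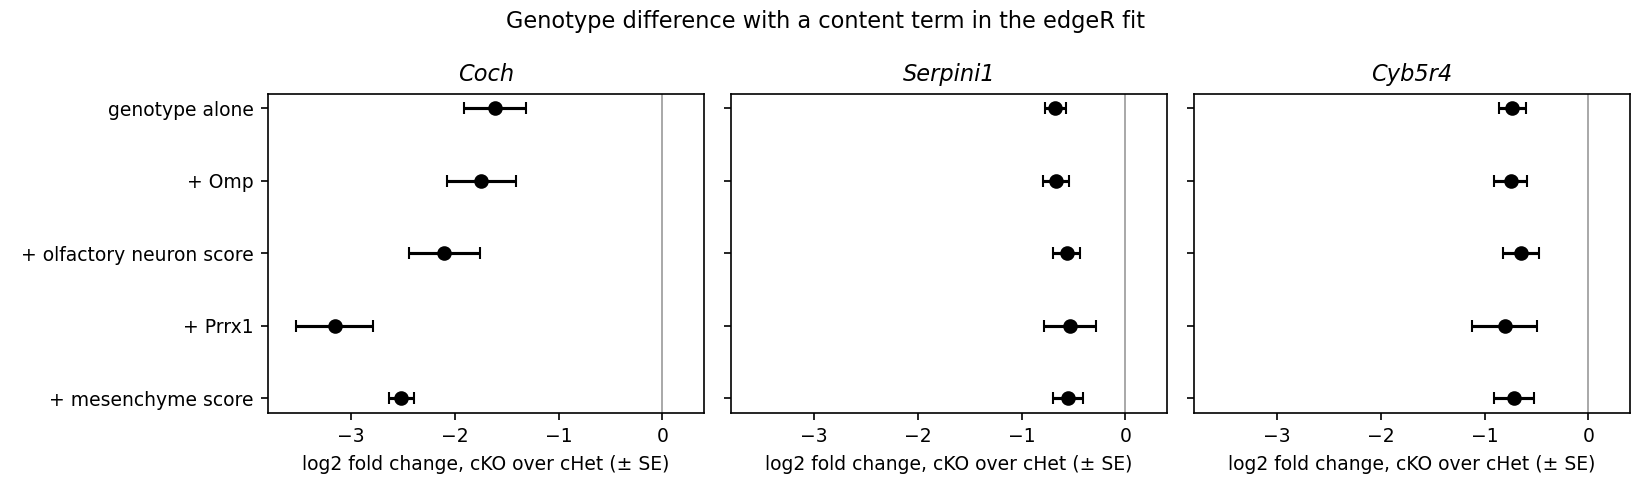
Log2 fold change of cKO over cHet (± SE) for each gene, from edgeR with genotype alone and with Omp, the olfactory neuron score, Prrx1 or the mesenchyme score added as a term. Coch moves to −3.16 with Prrx1, and the values of Serpini1 stay between −0.67 and −0.54.

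Serpini1 (ENSMUSG00000027834.16) was the steadiest of the 3 genes in cHet. It stood at 53.4, 63.7, 56.6 and 49.1 CPM in cKO7, cKO9, cKO14 and cKO15, against 89.0, 89.5, 85.1 and 91.6 CPM in cHet8, cHet11, cHet12 and cHet14. All cHet libraries lay within 1.08 times of each other, and the nearest cKO library was cKO9. Means were 55.7 ± 6.18 CPM in cKO and 88.8 ± 2.72 CPM in cHet (SD, n = 4 each), a log2 fold change of −0.67 (SE 0.11), with cKO at 62.7% of the cHet mean.

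The promoter window of Serpini1 lies on the plus strand at chr3:75557243-75557542 of GRCm38.p6, from RefSeq, and is shown for comparison with that of Coch.
Serpini1: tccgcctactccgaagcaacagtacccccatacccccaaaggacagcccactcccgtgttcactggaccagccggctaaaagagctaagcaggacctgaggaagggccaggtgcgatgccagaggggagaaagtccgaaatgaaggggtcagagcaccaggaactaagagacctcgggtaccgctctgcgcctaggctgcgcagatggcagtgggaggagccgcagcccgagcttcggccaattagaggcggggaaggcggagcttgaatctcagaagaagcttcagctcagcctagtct
It has no capitals because it held none of the motifs CCCNNGGG, CTTTGA and CTTTGT on either strand, and 60.0% of its bases are G or C. Pdcd10, a gene for an adaptor protein of blood vessel integrity, is the nearest protein-coding gene before Serpini1 and is annotated on the opposite strand. Pdcd10 averaged 71.2 ± 4.55 CPM in cKO and 79.5 ± 3.50 CPM in cHet (SD, n = 4 each), and its difference did not pass (log2 −0.16, SE 0.09, edgeR adjusted p = 0.419).

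No relation with these contents passed for Serpini1. Its deviations had r = 0.06 with Omp (exact permutation p = 0.752; rho 0.17, exact p = 0.733) and r = −0.33 with Prrx1 (exact permutation p = 0.229; rho −0.36, exact p = 0.392). With the olfactory neuron score r was 0.58 (exact permutation p = 0.0764; rho 0.64, exact p = 0.111), and 0.38 without cKO15 and cHet14 (exact p = 0.444), so the list gave a higher value than Omp alone. With the mesenchyme score r was −0.53 (exact permutation p = 0.0660; rho −0.64, exact p = 0.0833), and −0.75 without cKO15 and cHet11 (exact p = 0.167). That list too gave a value farther from zero than its single transcript. Without the farthest libraries r was −0.20 with Omp (exact p = 0.854) and −0.47 with Prrx1 (exact p = 0.521). The slopes were 0.02 (SE 0.18) on Omp and −0.07 (SE 0.12) on Prrx1, with edgeR adjusted p-values of 0.9997 and 0.966. The slopes of the 3 genes were not tested against each other. In cKO, Serpini1 ran from cKO9, the highest, through cKO14 and cKO7 to cKO15, and in cHet it was nearly flat across a 2.27-fold range of Omp.

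The list to which Serpini1 was closest was that of neuronal genes (Snap25, Syt1, Stmn2, Elavl3, Elavl4 and Tubb3). Its deviations had r = 0.86 with this score (exact permutation p = 0.0313; rho 0.81, exact p = 0.0451), and r = 0.82 without cKO7 and cKO15 (exact p = 0.208). The 6 neuronal genes all had a lower mean in cKO with none called, where 0.0558% of all tested genes were called lower. They summed to between 1175 and 1910 CPM in cKO and between 1715 and 2323 CPM in cHet. Their part in the lower Serpini1 level of cKO was not tested. In all, 54 pairs of a gene with 1 of 18 marker lists were computed. Of these 8 had p under 0.05 and none passed after adjustment (0.281 for Serpini1 with neuronal genes, 0.0938 for Coch with mesenchyme), and 0.0938 is the smallest that a lone pair could reach.

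Cyb5r4 (ENSMUSG00000032872.17) stood at 85.2, 97.6, 91.7 and 78.4 CPM in cKO7, cKO9, cKO14 and cKO15, against 135, 140, 179 and 132 CPM in cHet8, cHet11, cHet12 and cHet14. The cKO libraries were close together, and cHet12 lay above the other cHet libraries, which were close to each other. Means were 88.2 ± 8.28 CPM in cKO and 146 ± 21.8 CPM in cHet (SD, n = 4 each), a log2 fold change of −0.73 (SE 0.13), with cKO at 60.2% of the cHet mean. Within cKO the libraries had the same order as for Serpini1, cKO9 highest and cKO15 lowest, where Coch had cKO15 highest and cKO9 lowest. In cHet the genes shared no such order.

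The promoter window of Cyb5r4 lies on the plus strand at chr9:87021779-87022078 of GRCm38.p6, again from RefSeq.
Cyb5r4: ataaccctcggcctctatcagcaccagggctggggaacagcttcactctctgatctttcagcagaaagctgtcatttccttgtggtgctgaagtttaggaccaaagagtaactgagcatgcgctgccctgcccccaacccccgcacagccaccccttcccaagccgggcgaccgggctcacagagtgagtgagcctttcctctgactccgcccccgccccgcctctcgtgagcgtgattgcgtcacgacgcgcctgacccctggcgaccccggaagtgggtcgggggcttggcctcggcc
It too held none of the 3 motifs on either strand, and 63.3% of its bases are G or C. Ripply2, the protein-coding gene before it, was below the expression filter, with at most 0.456 CPM in cKO and 0.432 CPM in cHet. Mrap2, the gene after it, averaged 1.04 CPM in cKO and 1.12 CPM in cHet, so neither neighbour gave a level to compare with. Beside Coch, Scfd1 had means of 159 CPM in cKO and 144 CPM in cHet and Strn3 of 189 and 146 CPM, with log2 fold changes of 0.15 (edgeR adjusted p = 0.599) and 0.37 (edgeR adjusted p = 0.272). Golim4, the gene after Serpini1, had a log2 fold change of 0.91 (edgeR adjusted p = 0.143).

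For Cyb5r4 the deviations had r = −0.08 with Omp (exact permutation p = 0.781; rho −0.07, exact p = 0.903) and r = 0.08 with Prrx1 (exact permutation p = 0.908; rho −0.10, exact p = 0.847). Without the farthest libraries they were −0.16 (exact p = 0.750) and −0.66 (exact p = 0.208). With the olfactory neuron score r was 0.28 (exact permutation p = 0.554; rho 0.17, exact p = 0.729), and 0.54 without cKO15 and cHet14 (exact p = 0.472). With the mesenchyme score r was −0.07 (exact permutation p = 0.896; rho −0.21, exact p = 0.667), and −0.09 without cKO15 and cHet11 (exact p = 0.917). The slopes were −0.05 (SE 0.24) on Omp and 0.04 (SE 0.15) on Prrx1, with edgeR adjusted p-values of 0.9997 and 0.985. The high value of cHet12 coincides with neutrophil transcripts: the 7 listed neutrophil genes summed to 18436 CPM in cHet12, to between 50.9 and 1357 CPM in the other cHet libraries and to between 23.7 and 1287 CPM in cKO. The deviations of Cyb5r4 and of the neutrophil score had r = 0.71 (exact permutation p = 0.122; rho 0.69, exact p = 0.111), which turned to −0.26 without cKO15 and cHet12 (exact p = 0.556). Their part in the high value of cHet12 was not tested, and without cHet12 the log2 fold change of Cyb5r4 was −0.62 (SE 0.11).

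Between the 3 genes, the deviations had r = −0.50 for Coch with Serpini1 (exact permutation p = 0.0764, 0.229 adjusted over the 3 pairs), 0.01 for Coch with Cyb5r4 (exact p = 0.977) and 0.32 for Serpini1 with Cyb5r4 (exact p = 0.399). The genes were thus not shown to vary together once their shared difference between genotypes was taken out.

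The genes most like each of them, by r of the same deviations over 8 libraries among 11981 others whose mean reached 5 CPM, are a ranking and not a test. For Coch they were Palld, a protein of actin bundles (r = 0.993), Bicc1, an RNA-binding protein (0.991), Cavin1, a coat protein of caveolae (0.990), and Pmf1, a kinetochore protein (0.990). Palld, Bicc1 and Cavin1 had higher means in cKO (141, 110 and 49.7 CPM) than in cHet (72.8, 38.5 and 20.5 CPM), though none of the 3 was called (log2 0.95, 1.51 and 1.28, edgeR adjusted p = 0.300, 0.111 and 0.0625). They thus followed Coch within genotypes and differed from it in sign between them. In all, 459 genes had r above 0.9 with Coch, 143 with Serpini1 and 47 with Cyb5r4.

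For Serpini1 the most alike were Kcna6, a voltage-gated potassium channel (r = 0.987), the sorting nexin gene Snx32 (0.984), the transcription factor gene Zbtb18 (0.982) and Rhoq, a small GTPase (0.980). All 4 had log2 fold changes between −0.34 and −0.14, none of them called. For Cyb5r4 they were Entpd7, a nucleotide hydrolase (0.975), Sorl1, a sorting receptor (0.973), Fam107b (0.966) and Fmnl1, a formin of blood cells (0.964). Of these, Fam107b had a difference of about the size of that of Cyb5r4, with 154 CPM in cKO and 256 CPM in cHet (log2 −0.73, edgeR adjusted p = 0.0713). So had Sorl1, with 77.8 CPM in cKO and 130 CPM in cHet (log2 −0.74, edgeR adjusted p = 0.417). Fmnl1 stood at 6.44 CPM in cKO and 27.2 CPM in cHet (log2 −2.08, edgeR adjusted p = 0.270). Entpd7, the most alike, had a higher mean in cKO, 8.95 CPM against 7.10 CPM in cHet (log2 0.33, edgeR adjusted p = 0.714). With so many genes and 8 libraries, high values of r are common.

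edgeR called so few genes lower, 0.0558% of all tested, that lists this short would be likely to hold none. No partner of the 3 genes was called lower by edgeR, and DESeq2 called 1 lower, in the cytochrome b5 list. Among 17 relatives of cochlin and aggrecanases, which share its domains or, in mice, cleave it, 0 were called by edgeR in either direction, where 1.08% of all tested genes were called higher and 0.0558% lower. At an unadjusted p under 0.05, 5 of the 17 were higher and 0 lower, against 10.8% and 6.33% of all tested genes. DESeq2 called 4 higher, where it called 7.92% of all genes higher. The groups did not overlap for 3 of the 17, all higher, against 6.46% of all genes. The median log2 fold change was 0.08, against −0.03 over all tested genes. Vit, encoding vitrin, the closest relative with an LCCL domain and von Willebrand factor A domains, had 213 ± 82.8 CPM in cKO and 37.1 ± 23.9 CPM in cHet (SD, n = 4 each; log2 2.52, SE 0.56, edgeR adjusted p = 0.0765). The LCCL gene Crispld2 stood at 161 CPM in cKO and 45.9 CPM in cHet (log2 1.81, edgeR adjusted p = 0.128). Adamts4 and Adamts9, which encode proteases of the aggrecanase family, had log2 fold changes of 1.54 and 0.89 (edgeR adjusted p = 0.127 and 0.198).

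In the list of plasminogen activation and its serpins, 20 of 26 genes passed the filter, and 1 was called higher and 0 lower, against 1.08% and 0.0558% of all genes. The called gene was Lrp1, a receptor that clears protease and inhibitor complexes, which rose to 269 ± 74.4 CPM in cKO, against 67.6 ± 27.1 CPM in cHet (SD, n = 4 each; log2 1.995, SE 0.31, edgeR adjusted p = 0.0377). The call held without cKO9 and without cHet8 and was lost without each of the other 6 libraries (adjusted p from 0.0796 to 0.147). Without cKO9, 5 genes of the list were called. At an unadjusted p under 0.05, 7 of the 20 were higher and 1 lower, against 10.8% and 6.33% of all tested genes. DESeq2 called 7 higher and 0 lower, against 7.92% and 3.97% of all genes. The groups did not overlap for 4 of the 20, all higher, against 6.46% of all genes. Plat, the tissue-type plasminogen activator that neuroserpin inhibits, stood at 110 ± 24.8 CPM in cKO and 55.9 ± 16.2 CPM in cHet (SD, n = 4 each), which did not pass (log2 0.97, SE 0.24, edgeR adjusted p = 0.0970). The serpin genes Serpinf1 and Serping1 had log2 fold changes of 2.19 and 1.68 (edgeR adjusted p = 0.0716 and 0.0818). Serpini2, the nearest relative of Serpini1, was below the filter. The median over the list was 0.14.

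In the cytochrome b5 system and its desaturases, 22 genes were tested and 0 were called by edgeR in either direction, while DESeq2 called 1 lower, where it called 3.97% of all genes lower. At an unadjusted p under 0.05 there were 1 higher and 1 lower, against 10.8% and 6.33% of all genes. The list spanned log2 fold changes from −0.65 to 0.59 with a median of −0.03, and none of its genes had groups without overlap, against 6.46% of all genes higher and 3.68% lower. The reductase genes Cyb5r1 and Cyb5r3 stood at 74.3 and 154 CPM in cKO, against 81.7 and 113 CPM in cHet. Msmo1, a sterol oxidase that draws electrons from cytochrome b5, had the smallest p (85.1 ± 10.5 CPM in cKO and 115 ± 12.4 CPM in cHet, SD, n = 4 each; log2 −0.44, SE 0.13, edgeR adjusted p = 0.139). The desaturase genes Fads2, Fads1 and Scd2 had log2 fold changes of 0.35, 0.27 and 0.47, with edgeR adjusted p-values of 0.255, 0.295 and 0.306.

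**Figure D5:**
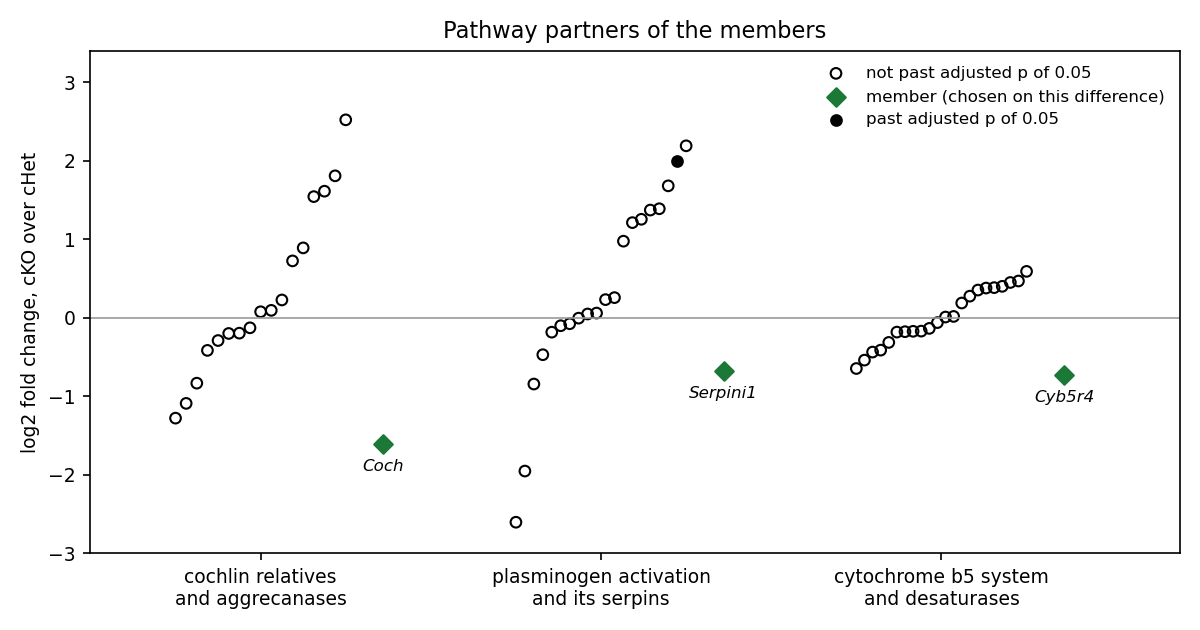
Log2 fold change of cKO over cHet of the tested genes of each pathway list, sorted within the list, with Coch, Serpini1 and Cyb5r4 as diamonds beside their partners. Lrp1 is the only filled point, and Coch at −1.61 and Cyb5r4 at −0.73 lie below every gene of their own lists, while Plaur and others lie below Serpini1.

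Inner ear fibrocyte genes, which mark the cells that make most cochlin in the ear, were low, and their sums overlapped between the genotypes. The 7 listed genes summed to between 30.2 and 62.8 CPM in cKO and between 25.9 and 96.9 CPM in cHet. Of them 6 were tested and none was called, where 1.13% of all tested genes were called in either direction. Of these 6, 5 had a lower mean in cKO, and the median log2 fold change was −0.35, against −0.03 over all tested genes. The deviations of Coch and of this list score had r = 0.09 (exact permutation p = 0.802; rho 0.07, exact p = 0.903).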

How the data were processed

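The authors deposited a table of raw gene counts for 8 libraries of tdTomato-positive cells, made, per the submitters' processing notes, with Trim Galore and STAR on GRCm39 (mm39). The sources used here do not give the counting tool, the strand setting or the annotation. Its 8 columns name a genotype but match no single sample title, so each was used as 1 library of its group. The table holds 56748 genes, of which 52073 had a symbol, and the ID with the highest count was used for each symbol.

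Genes were filtered with filterByExpr, scaled by TMM and tested with the quasi-likelihood F test of edgeR 4.0.16 in R 4.3.3, with Benjamini-Hochberg adjustment over 21508 genes and a threshold of 0.05. Each SE was taken as the absolute log2 estimate over the root of its F value. Slopes were fitted with genotype and log2 CPM (prior count 2) of a transcript, or the mean of a list, as terms. Correlations used deviations from the mean of each genotype and exact two-sided permutation within genotypes. DESeq2 1.42.0, other scalings and filters, and leaving out each library were alternatives, and the fits were tested on simulated data. Beside the 3 genes, the text names the 4 genes most like each, the 4 with the smallest p and any called in each pathway list, and the nearest protein-coding gene on each side; other list genes were named after their values were seen. The 3 genes, the marker lists and the pathway lists were chosen with earlier results of these data known. Promoter windows are RefSeq sequence of GRCm38.p6, not the build of the counts, and were matched by symbol for all 3 genes.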

Additional observations from a re-analysis of the deposited data

How the results depend on the processing

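All 54 alternative log2 fold changes of the 3 genes were negative. Leaving out 1 library gave −1.83 to −1.46 for Coch, −0.75 to −0.62 for Serpini1 and −0.80 to −0.62 for Cyb5r4. The value moved with Prrx1 as a term (Coch −3.16, Serpini1 −0.54) and with the mesenchyme score (Coch −2.52, Serpini1 −0.55). The list scores as terms, and the left-out libraries for Coch on the mesenchyme score and for Prrx1 and Lrp1, were chosen after seeing the data. The slope of Coch on Prrx1 passed with DESeq2 (0.88) and in no edgeR fit. With the mesenchyme score in place of Prrx1, the edgeR slope of Coch passed (0.75). With Omp and Prrx1 together, the slope on Omp changed sign for Coch (0.39) and Serpini1 (−0.0527). With the olfactory neuron score in place of Omp, the slope had the other sign for Cyb5r4 (0.21). The slope of Cyb5r4 on Prrx1 changed sign on library size alone (−0.0204), and with the mesenchyme score in place of Prrx1 it was also negative (−0.0133). Left-out libraries gave slopes on Omp of −0.80 to 0.0936 for Coch, −0.0676 to 0.0638 for Serpini1 and −0.43 to 0.31 for Cyb5r4. On Prrx1 they gave 0.61 to 0.94, −0.17 to −0.0164 and −0.0828 to 0.15 in the same order of genes, and 0.69 to 0.78 for Coch on the mesenchyme score. The correlation of Coch with the mesenchyme score in place of Prrx1 passed (0.993). That of Serpini1 with Omp changed sign without the 2 farthest libraries (−0.203). For Cyb5r4 the correlation had the other sign with the olfactory neuron score in place of Omp (0.281). Cyb5r4 with Prrx1 changed sign on library size alone (−0.0768), as Spearman rho (−0.0952) and without the 2 farthest libraries (−0.657). With the mesenchyme score in place of Prrx1 the value for Cyb5r4 was also negative (−0.0726). Left-out libraries gave r with Omp of −0.484 to 0.153 for Coch, −0.148 to 0.267 for Serpini1 and −0.547 to 0.412 for Cyb5r4, and with Prrx1 of 0.709 to 0.958, −0.476 to −0.0940 and −0.399 to 0.348. DESeq2 called 4 genes of the cochlin list, 7 of the plasminogen list, 1 of the cytochrome b5 list and 2557 in all, against 0, 1, 0 and 244 by edgeR. Left-out libraries gave 0 to 1, 0 to 5, 0 to 0 and 0 to 960. The causes were not tested. No paired analysis was possible because the columns do not carry the replicate numbers of the labels, and the numbers they do carry share only 1 between the genotypes. With 4 libraries a genotype, slopes and correlations on 1 transcript are set by few libraries.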

Other observations

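Of the pairs of a gene with a marker list, the following also had an unadjusted p under 0.05 and none passed over the 54 pairs. Coch had r = −0.73 with neuronal genes (exact permutation p = 0.0122, adjusted 0.219), r = 0.86 with osteoblast genes (exact p = 0.0243, adjusted 0.263) and r = 0.80 with pericyte genes (exact p = 0.0451, adjusted 0.328). Without the libraries farthest from the median of the list score, the neuronal value was −0.90 (without cKO7 and cKO15, exact p = 0.0208). The osteoblast value was 0.22 without cKO9 and cHet11 (exact p = 0.778), and the pericyte value 0.76 without cKO14 and cHet11 (exact p = 0.139). Serpini1 had r = −0.54 with apical papilla genes (exact p = 0.0486, adjusted 0.328), which was −0.78 without cHet11 and cHet14 (exact p = 0.125). Cyb5r4 had r = −0.77 with odontoblast genes (exact p = 0.0208, adjusted 0.263), which was −0.31 without cKO9 and cHet12 (exact p = 0.389).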
